A study of Mus musculus with 15 samples.

Results

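The interferon response genes described here are 34 mouse genes that interferons are known to switch on or that carry the interferon signal: antiviral effectors, the ISG15 system, guanylate-binding proteins, transcription factors, an RNA sensor and parts of the antigen processing machinery. They were chosen by name, from a list, with earlier results of these data known. RefSeq accessions of the probes matched 32 of the 34. Mx1 and Mx2 had no matched probe and were not analysed here. The test required a probe well above background in every array of some group, and 27 members were among the 14443 genes that met this. The remaining 5, Ifit1, Ifit3, Rsad2, Ifi44 and Irf7, were too dim.

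Expression was measured on single-colour Agilent arrays in mouse embryonic stem cells grown in standard medium on gelatin-coated plates, in 5 groups of 3 arrays. Map3k3 cells with Dox lack the gene named Nat1 in the labels, carry a tet-inducible Map3k3 transgene and received doxycycline (Dox), the drug that switches the transgene on. Map3k3 cells without Dox are the same null cells with the transgene and no drug, and EGFP cells with Dox are null cells with a tet-inducible fluorescent protein, given the drug. Null cells lack the gene and carry no transgene, and wild-type cells have it. All groups but the wild type therefore share the null background. The sources used here do not give whether a line is a single clone or how long Dox was applied. Nor do the labels state that the replicates came from separate cultures, so the p-values reflect the spread among these arrays, which may be technical.

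Levels are log2 signals with the array's own 75th percentile at 0, a scale on which probes of different genes cannot be set against each other. The arrays' 75th percentiles lay between 556 and 696 signal units, and the share of probes well above background was 42.7 to 53.9%. That share differed by slide row, at 50.8 to 53.9% in row 1, which holds the wild type, and 42.7 to 49.2% in row 2, which holds the null cells. The lowest signal of an array was 4.33 to 4.83 units in row 1 and 6.12 to 12.7 units in row 2. Between null and wild-type cells, being well above background therefore goes with row as well as with group. Rose and fell are used of genes that differed by 1.5-fold or more with an adjusted p in limma below 0.05, and such genes are said to be called. The labels were checked on the probe of Eif4g2, the gene also called Nat1, whose log2 level averaged 1.56 ± 0.20 in null cells and 4.13 ± 0.14 in wild-type cells (SD, n = 3 each). The Map3k3 probe averaged a log2 level of -0.68 ± 0.15 in Map3k3 cells with Dox and -0.85 ± 0.23 without Dox (SD, n = 3 each), and did not pass the test (limma adjusted p = 0.279). Induction of the transgene was thus not seen at that probe, whose place relative to the transgene the sources used here do not give, and the group names are those of the labels. Wild-type and null arrays lay in different rows of 1 slide, and the Map3k3 arrays on a second slide.

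Type I interferons bind a receptor whose kinases Jak1 and Tyk2 activate Stat2. Stat2 acts with Irf9 at the interferon-stimulated response element (ISRE), while interferon gamma acts through another element, GAS. NF-kB and the IRF factors switch on many of the same genes after infection or stress, and Map3k3, also called MEKK3, is a kinase known to act upstream of MAP kinases and of NF-kB. Pluripotent stem cells are known for a weak interferon response.

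Promoter windows of 300 bases, 250 before and 50 after the gene start, were taken from RefSeq on build GRCm38.p6 and matched 30 of the 34 members. Gbp4, Usp18, Mx1 and Mx2 had no window in the table. They were searched on both strands for the ISRE letters (GAAA, any 2 bases and GAAA again), the GAS letters TTCNNNGAA and the NF-kB consensus. Matches of different motifs may overlap, and each is a description of the letters and not a site. The ISRE letters were in 14 of the 30 members with a window (46.7%) and in 3.99% of the 27025 genes with a window. The GAS letters were in 10 of the 30 members, the NF-kB consensus was in 9 of the 30, and each was in 9.55% of all genes. The 250 bases before the start follow for 5 members whose levels carry the results below: Isg15, whose 3 ISRE matches overlap, Gbp2 and Gbp3, with ISRE letters close to the start, B2m, with ISRE and NF-kB letters side by side, and the window of Isg20 that holds an NF-kB match and no ISRE. All are written 5′ to 3′ along the gene, and capitals mark the ISRE letters or the NF-kB consensus on either strand.
Isg15 (chr4:156200819-156201068, minus strand): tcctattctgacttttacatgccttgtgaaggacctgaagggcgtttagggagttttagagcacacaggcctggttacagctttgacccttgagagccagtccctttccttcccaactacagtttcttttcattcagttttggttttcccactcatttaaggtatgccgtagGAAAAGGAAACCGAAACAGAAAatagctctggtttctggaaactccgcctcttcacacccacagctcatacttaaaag
Gbp2 (chr3:142620413-142620662, plus strand): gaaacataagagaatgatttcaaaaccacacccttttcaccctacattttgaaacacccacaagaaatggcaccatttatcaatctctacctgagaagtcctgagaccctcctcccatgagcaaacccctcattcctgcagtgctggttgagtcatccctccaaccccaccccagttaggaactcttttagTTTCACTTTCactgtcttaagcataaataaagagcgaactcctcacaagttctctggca
Gbp3 (chr3:142559794-142560043, plus strand): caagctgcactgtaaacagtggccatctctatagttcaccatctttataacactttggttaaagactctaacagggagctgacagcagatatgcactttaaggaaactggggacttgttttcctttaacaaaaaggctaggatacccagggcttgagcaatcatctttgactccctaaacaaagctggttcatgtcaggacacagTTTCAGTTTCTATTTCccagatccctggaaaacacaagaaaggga
B2m (chr2:122147437-122147686, plus strand): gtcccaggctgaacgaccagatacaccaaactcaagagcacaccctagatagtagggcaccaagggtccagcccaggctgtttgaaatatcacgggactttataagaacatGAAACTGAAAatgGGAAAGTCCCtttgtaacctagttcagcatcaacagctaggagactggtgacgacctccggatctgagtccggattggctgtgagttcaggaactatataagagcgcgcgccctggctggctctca
Isg20 (chr7:78913515-78913764, plus strand): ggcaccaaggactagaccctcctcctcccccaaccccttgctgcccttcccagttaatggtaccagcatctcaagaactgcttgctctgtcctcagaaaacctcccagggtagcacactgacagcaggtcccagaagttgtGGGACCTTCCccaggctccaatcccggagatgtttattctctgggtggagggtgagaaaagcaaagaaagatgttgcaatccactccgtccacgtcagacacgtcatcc

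**Figure D1:**
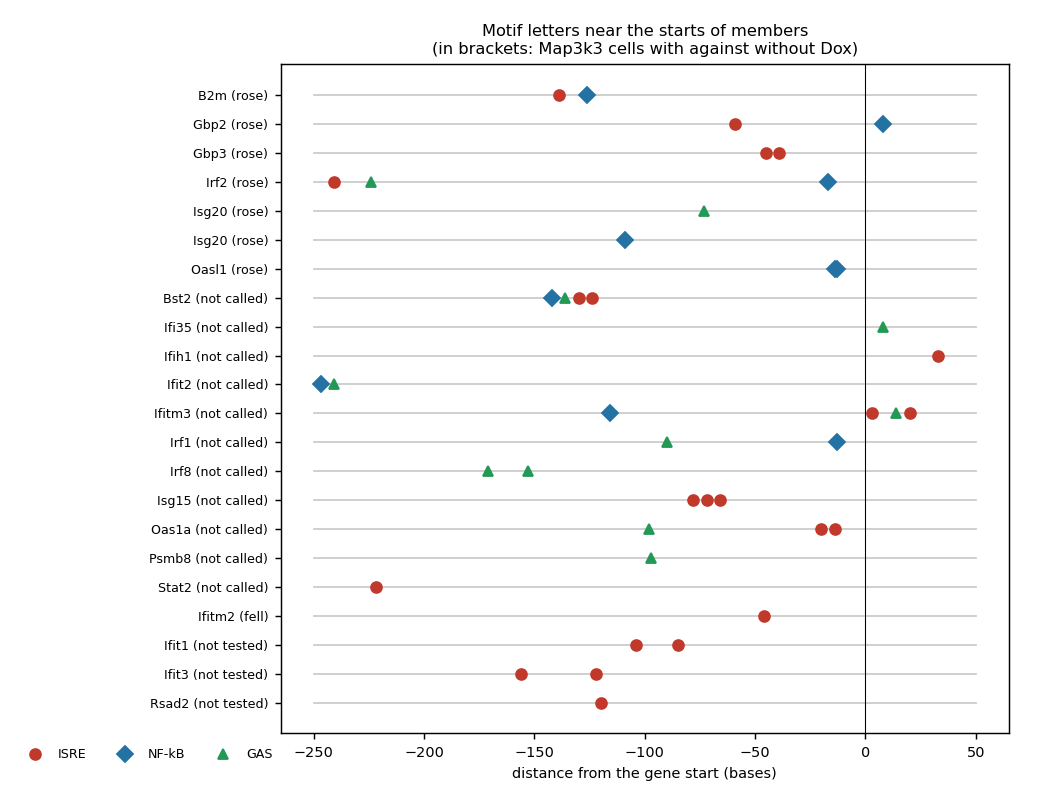
Distance in bases from the gene start (horizontal axis) of ISRE, NF-kB and GAS letters in the promoter windows of the members with a match (1 line per window, Isg20 having several starts), each name followed by its call in Map3k3 cells with against without Dox. ISRE letters of Isg15 lie at -78, -72 and -66, and those of Gbp2 at -59. In B2m the ISRE letters at -139 are followed by the NF-kB consensus at -126.

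Null cells were compared with wild-type cells to ask what loss of Nat1 does to these genes. Of the 27 members tested 18 fell and 1 rose in null cells, and 8 were not called. Over all genes 38.3% were called, 20% falling and 18.3% rising. The median log2 difference, null minus wild type, was -1.50 over the members and 0.10 over all genes. The arrays of null and wild-type cells did not overlap in 24 of the 27 members, which held for 72.9% of all genes. In bulk RNA, fewer cells that express a gene and less RNA per cell cannot be told apart. For 8 members the probe was well above background on all arrays of wild-type cells and in no other group on all arrays: Gbp4, Ifih1, Ifit2, Irf2, Oasl2, Psmb8, Tap1 and Usp18. These 8 passed the filter through wild-type cells alone, so the filter favoured calling them as lower in null cells. The slide row of the null cells also had the smaller share of probes well above background, and its part in this list was not tested. The uninduced Map3k3 arrays, which did not all reach that mark for these 8, lie in row 1 of the other slide. They differ from the wild type in slide and in line, so row and group cannot be told apart here. Among the 15 members above background on all arrays 8 fell and 1 rose (33.2% of all genes called, 61.1% of those rising). Where the dimmer group was not well above background, the fold is a bound, written as at least, with the dim values raised to the lowest signal that was well above background on their arrays. A log2 difference given for such a probe is a fitted value and not a measured size.

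All 3 guanylate-binding proteins, GTPases that attack the vacuoles of pathogens inside the cell, fell in null cells. Of these Gbp4 passed the filter through wild-type cells alone. The log2 levels of Gbp2 were -6.34, -6.18 and -6.26 in null cells, none well above background, and 2.69, 2.58 and 2.56 in wild-type cells. All null arrays were thus far below all wild-type arrays, at least 128-fold (limma adjusted p = 8.43e-13). Gbp3 had log2 levels of -6.21, -4.70 and -4.60 in null cells, again not well above background, against 0.63, 0.67 and 0.79 in wild-type cells. The groups did not overlap, and the fall was at least 32-fold (limma adjusted p = 9.06e-08). Gbp4 gave log2 levels of -4.84, -6.37 and -6.42 in null cells and -0.43, -0.51 and -0.24 in wild-type cells, a fall of at least 16-fold (limma adjusted p = 7.32e-07).

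All 4 members of antigen processing fell as well, Psmb8 and Tap1 having passed the filter through wild-type cells alone. B2m is the light chain that every class I MHC molecule needs, Psmb8 and Psmb9 are catalytic subunits of the immunoproteasome, and Tap1 is part of the pump that brings peptides to MHC. The log2 levels of B2m were -0.29, -0.55 and 0.06 in null cells and 2.74, 2.77 and 2.69 in wild-type cells. The 6 arrays fell into separate ranges, with null cells 7.95-fold lower (log2 difference -2.99, SE 0.15, limma adjusted p = 1.03e-08). Psmb8 had log2 levels of -5.42, -6.28 and -3.95 in null cells, where only array 3 was well above background, against 1.22, 1.09 and 1.09 in wild-type cells, a fall of at least 37.3-fold (limma adjusted p = 1.94e-06). For Psmb9 the log2 levels were -1.70, -2.78 and -1.30 in null cells and 0.75, 0.79 and 0.72 in wild-type cells. Psmb9 was 6.42-fold lower (limma adjusted p = 0.000161), with array 2 the lowest of the null arrays. Tap1 was dim throughout, at log2 levels of -6.11, -6.23 and -6.29 in null cells and -4.35, -4.54 and -4.42 in wild-type cells. It passed the test (limma adjusted p = 4.22e-07) without a fold, since the mean wild-type level lay no higher than the mean, over the null arrays, of their lowest signals well above background. Psmb9 and Tap1 start next to each other and share 275 bases of their promoter windows on opposite strands.

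Both members of the ISG15 system fell, Usp18 having passed the filter through wild-type cells alone. Isg15 is a ubiquitin-like protein that interferon strongly induces, and Usp18 is the protease that removes it from its targets and damps the receptor. The log2 levels of Isg15 were -2.06, -2.04 and -2.22 in null cells and 1.17, 1.22 and 1.15 in wild-type cells. Null cells were 9.78-fold lower, with no overlap (log2 difference -3.29, SE 0.12, limma adjusted p = 1.16e-09). Usp18 had log2 levels of -4.85, -6.09 and -6.16 in null cells, not well above background, and -4.05, -4.18 and -4.32 in wild-type cells, near background, and fell at least 1.16-fold (limma adjusted p = 0.0137). The RNA sensor Ifih1, also called MDA5, fell at least 2.66-fold, with log2 levels of -6.08, -6.27 and -5.75 in null cells and -2.96, -3.14 and -2.84 in wild-type cells (limma adjusted p = 5.09e-05). Ifih1 too passed the filter through wild-type cells alone.

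Of the 10 antiviral effectors tested 6 fell in null cells and none rose, Oasl2 and Ifit2 having passed the filter through wild-type cells alone. Oasl2, a relative of the oligoadenylate synthetases, had log2 levels of -5.55, -6.38 and -5.34 in null cells, none well above background, against 0.16, -0.07 and 0.03 in wild-type cells, at least 21.7-fold (limma adjusted p = 9.71e-07). Ifi35, a partner of other interferon-induced proteins, had log2 levels of -1.54, -1.66 and -2.12 in null cells and 0.51, 0.62 and 0.65 in wild-type cells, with no overlap and a 5.15-fold fall (limma adjusted p = 3.53e-07). Ifit2, which binds foreign RNA, fell at least 2.66-fold (limma adjusted p = 0.00166). Bst2, or tetherin, which holds budding viruses on the cell surface, fell 2.42-fold (limma adjusted p = 0.000379). Ifitm1 and Ifitm3 are membrane proteins that block entry of viruses. Ifitm1 fell 2.55-fold, with log2 levels of 5.13, 5.01 and 4.93 in null cells and 6.39, 6.40 and 6.32 in wild-type cells (limma adjusted p = 9.96e-07). Ifitm3 fell 1.53-fold (limma adjusted p = 0.000755), and in Ifitm2 the log2 levels were 5.44, 5.55 and 5.37 in null cells and 4.88, 4.93 and 4.94 in wild-type cells, 1.45-fold higher and short of the fold minimum. Oas1a, Oasl1 and Isg20, an exonuclease, were not called, though a dimmer probe of Isg20 fell at least 5.48-fold (limma adjusted p = 5.94e-08).

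The transcription factors differed among themselves: Irf9 rose, Irf1 and Irf8 fell, and 4 of the 7 tested were not called. Irf9 had log2 levels of 1.83, 1.86 and 1.81 in null cells and 0.87, 0.84 and 0.89 in wild-type cells. All null arrays lay above all wild-type arrays, 1.96-fold (log2 difference 0.97, SE 0.05, limma adjusted p = 3.38e-08). Stat2, the partner of Irf9, differed in the same direction but by less than the fold minimum, with log2 levels of 2.08, 2.19 and 2.07 in null cells and 1.57, 1.55 and 1.53 in wild-type cells (1.47-fold, limma adjusted p = 7.14e-05). Irf1, a broad activator of interferon-stimulated genes, fell 1.89-fold, with log2 levels of 4.19, 3.29 and 4.15 in null cells and 4.72, 4.75 and 4.90 in wild-type cells (limma adjusted p = 0.00939). Irf8, best known from myeloid cells, fell 2.82-fold (limma adjusted p = 0.0171). Irf3, which sensors activate after infection, differed by 0.35 on the log2 scale, Irf5 by -0.25 and Irf2 by -0.72. Array 2 of the null cells and slide row mattered here. Without null array 2, Irf8 was no longer called (log2 difference -1.06, limma adjusted p = 0.0764), Ifitm3 was short of the fold minimum at -0.53, and Isg20 was called as higher at 0.63 (limma adjusted p = 0.0329). Without null array 3, Usp18 was not called (log2 difference -1.29, limma adjusted p = 0.0537), and with slide row as a block Irf1, Irf8, Usp18 and Ifitm3 were not called, at log2 differences of -0.74, -0.75, -1.05 and -0.57. The row block also brought calls of Irf2 as lower in null cells (log2 difference -1.61, limma adjusted p = 0.0466) and of Stat2 as higher (log2 difference 0.60, limma adjusted p = 0.00217).

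**Figure D2:**
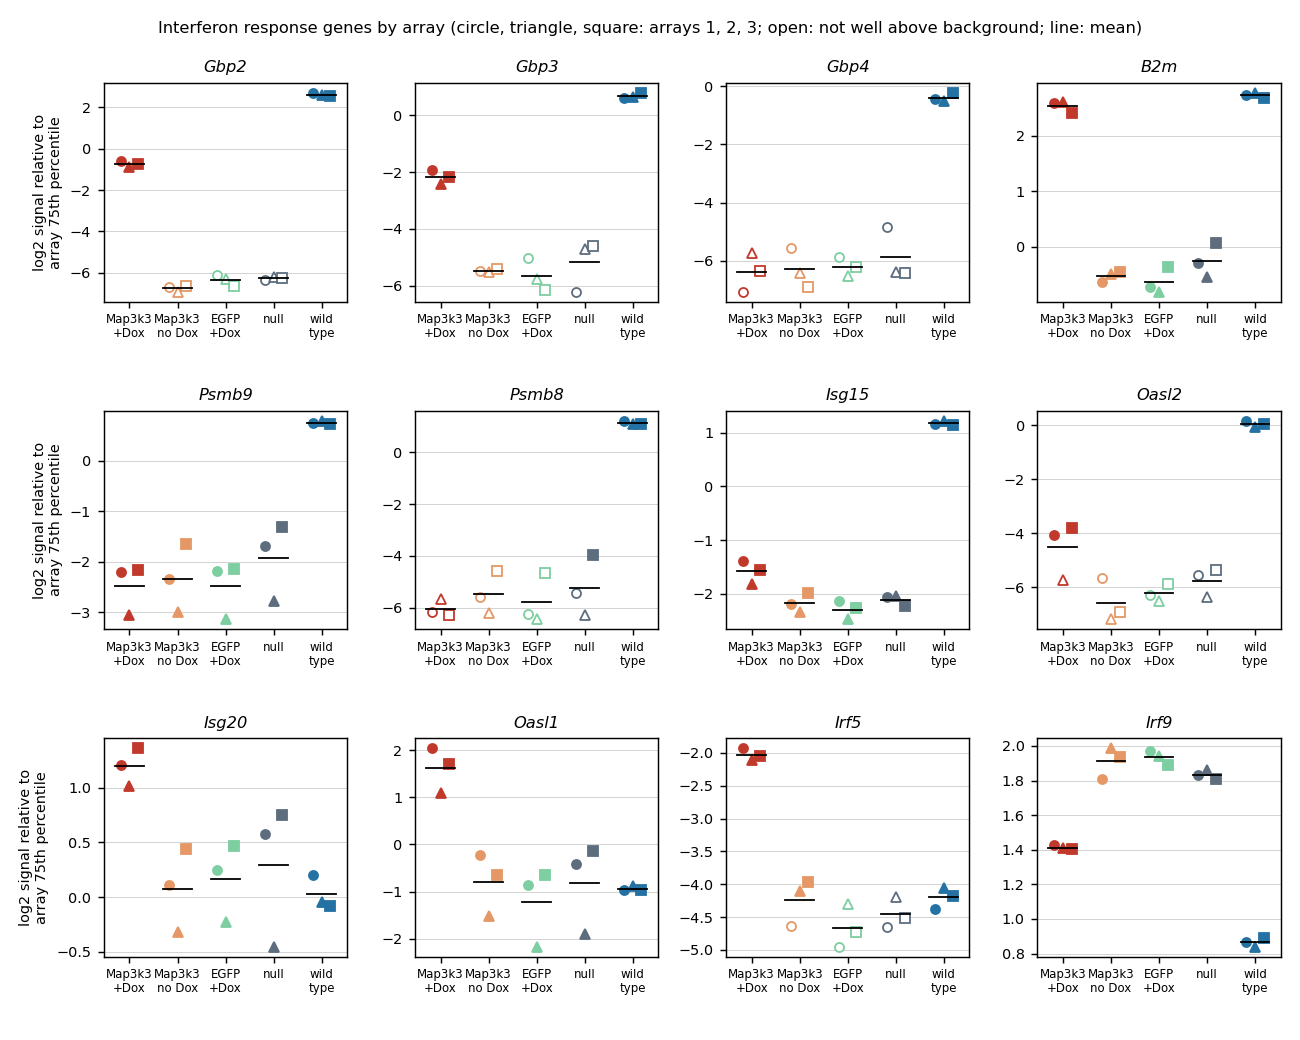
Log2 levels, with the array's 75th percentile at 0 (vertical axes), of 12 members on each of the 15 arrays, in 5 groups. Circles, triangles and squares are arrays 1, 2 and 3, open symbols were not well above background, and lines are means of 3 arrays. Gbp2, Gbp3 and B2m are low in the null, EGFP and uninduced groups and higher with Map3k3, Gbp4, Psmb8 and Psmb9 are high in wild-type cells alone, and Oasl1, Isg20 and Irf5 are highest in Map3k3 cells with Dox.

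Map3k3 cells with Dox were compared with the same cells without Dox and with EGFP cells with Dox, to ask which members respond to the transgene in the null background. Against the cells without Dox 9 of the 27 members rose and 2 fell, where 18% of all genes were called, 12% rising and 6% falling. Against EGFP cells again 9 rose and 2 fell, where 18.2% of all genes were called, 12.1% rising and 6.04% falling. The median log2 difference was 0.35 over the members and -0.09 over all genes against cells without Dox, and 0.24 over the members and -0.10 over all genes against EGFP cells. Oasl1, Oasl2, Isg20, Gbp2, Gbp3, Irf5 and B2m, 7 members, rose against both controls, and Ifitm1 and Ifitm2 fell against both. The arrays did not overlap in 15 of the 27 members against cells without Dox (51.4% of all genes) and in 14 against EGFP cells (50.6% of all genes). The comparisons share the induced arrays. All 3 uninduced arrays lay in slide row 1 and 2 of the 3 induced arrays in row 2, where the lowest signals were higher. Row therefore goes partly with induction in the comparison with cells without Dox. Within slide 2, where EGFP cells have 2 arrays, 6 members rose and 2 fell against EGFP cells (13.2% of all genes called, 71.8% of those rising). Within slide row 1, with 1 induced array that was assumed to vary like the others, 4 members rose and 1 fell against cells without Dox (7.16% of all genes called, 78% of those rising).

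Among the guanylate-binding proteins Gbp2 and Gbp3 rose and Gbp4 did not pass the test. Gbp2 had log2 levels of -0.61, -0.89 and -0.74 in Map3k3 cells with Dox, against -6.67, -6.91 and -6.64 without Dox and -6.12, -6.32 and -6.64 in EGFP cells. No control array was well above background, and the rise was at least 21-fold against cells without Dox (limma adjusted p = 4.03e-11) and at least 15.7-fold against EGFP cells (limma adjusted p = 6.78e-11). Gbp3 had log2 levels of -1.91, -2.43 and -2.16 in Map3k3 cells with Dox, against -5.48, -5.54 and -5.40 without Dox and -5.01, -5.78 and -6.14 in EGFP cells. The induced arrays stood apart from all controls, at least 7.77-fold above cells without Dox (limma adjusted p = 3.25e-05) and at least 5.87-fold above EGFP cells (limma adjusted p = 2.1e-05). Gbp4 was not well above background on any array of the null background, at log2 levels of -7.05, -5.72 and -6.33 with Dox and -5.57, -6.40 and -6.89 without Dox.

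Of the antigen processing members B2m rose and the immunoproteasome subunits did not pass the test. The log2 levels of B2m were 2.60, 2.61 and 2.41 in Map3k3 cells with Dox, against -0.64, -0.50 and -0.46 without Dox and -0.73, -0.81 and -0.37 in EGFP cells. B2m was 8.4-fold higher than without Dox (log2 difference 3.07, SE 0.15, limma adjusted p = 2.02e-08) and 9.03-fold higher than in EGFP cells (limma adjusted p = 1.59e-08). Psmb9 had log2 levels of -2.21, -3.06 and -2.18 in Map3k3 cells with Dox and -2.35, -3.01 and -1.65 without Dox, ranges that overlap (log2 difference -0.15, SE 0.43). Psmb8 was not well above background on any of these arrays. Tap1 was called against cells without Dox (limma adjusted p = 0.000257) but no array of either group was well above background. With quantile normalization the log2 difference of Tap1 was 0.23 (limma adjusted p = 0.345).

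Among the antiviral effectors Oasl1, an oligoadenylate synthetase relative that lowers translation of Irf7 in the mouse, had log2 levels of 2.04, 1.10 and 1.70 in Map3k3 cells with Dox. The controls had log2 levels of -0.23, -1.51 and -0.65 without Dox and -0.85, -2.17 and -0.65 in EGFP cells. Every induced array was above every control array, 5.31-fold against cells without Dox (log2 difference 2.41, SE 0.50, limma adjusted p = 0.00256) and 7.14-fold against EGFP cells (limma adjusted p = 0.00084). Isg20 had log2 levels of 1.20, 1.02 and 1.36 in Map3k3 cells with Dox, 0.11, -0.32 and 0.44 without Dox and 0.25, -0.23 and 0.47 in EGFP cells. It rose 2.17-fold against cells without Dox (limma adjusted p = 0.00978) and 2.04-fold against EGFP cells (limma adjusted p = 0.0142), the second not called without EGFP array 2 (log2 difference 0.84, limma adjusted p = 0.0551). A second, dimmer probe of Isg20 had log2 levels of -0.79, -0.64 and -0.83 in Map3k3 cells with Dox, -4.07, -4.61 and -4.44 without Dox, -5.32, -4.73 and -4.81 in null cells, and -1.67, -2.08 and -2.01 in wild-type cells. The probes of Isg20 therefore agree that the gene was higher with Map3k3 and disagree for null against wild-type cells, where the brighter probe differed by 0.26 on the log2 scale and the dimmer one was far lower in null cells. Which transcripts each probe binds is unknown here.

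Oasl2 passed the test against both controls without a fold, at log2 levels of -4.05, -5.72 and -3.81 in Map3k3 cells with Dox, where arrays 1 and 3 were well above background, -5.65, -7.19 and -6.90 without Dox and -6.29, -6.52 and -5.86 in EGFP cells. Map3k3 array 2 lay within the range of cells without Dox and above all EGFP arrays. On that array Gbp4 and Irf7, also not well above background, read -5.72 and -5.70. The lowest signal of that array, 12.7 units, was the highest of the 15 arrays. Its part in the place of Oasl2 above the EGFP arrays was not tested. The call against EGFP cells (log2 difference 1.69, limma adjusted p = 0.0165) was lost without Map3k3 array 1 at 1.46, without Map3k3 array 3 at 1.33 and without EGFP array 2 at 1.55. Ifitm1 fell, with log2 levels of 3.84, 4.37 and 3.95 in Map3k3 cells with Dox, 5.13, 5.29 and 5.06 without Dox and 5.23, 5.29 and 5.28 in EGFP cells. The induced arrays were below all controls, 2.15-fold against cells without Dox (limma adjusted p = 1.79e-05) and 2.32-fold against EGFP cells (limma adjusted p = 8.19e-06). Ifitm2 fell 1.57-fold against cells without Dox (limma adjusted p = 5.02e-05) and 1.55-fold against EGFP cells (limma adjusted p = 6.24e-05), and was short of the fold minimum with quantile normalization at -0.56 and -0.51 and without EGFP array 2 at -0.58. Ifitm3, Bst2, Oas1a and Ifit2 did not pass the test against either control. Ifi35 was called against EGFP cells at 0.59 (limma adjusted p = 0.0197), and not without Map3k3 array 1 at 0.58, Map3k3 array 2 at 0.48 or EGFP array 3 at 0.41.

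In the ISG15 system, Isg15 had log2 levels of -1.38, -1.82 and -1.55 in Map3k3 cells with Dox, against -2.19, -2.33 and -1.98 without Dox and -2.14, -2.48 and -2.27 in EGFP cells. The groups did not overlap, and Isg15 rose 1.64-fold against EGFP cells (log2 difference 0.71, limma adjusted p = 0.000694). That call was lost with the mean of its 2 probes at 0.30 (limma adjusted p = 0.103), within slide 2 at 0.73 (limma adjusted p = 0.057) and with normexp background correction at 0.49, short of the fold minimum. The second probe, on no array of either group well above background, differed by -0.11. Against cells without Dox its log2 difference of 0.58 (SE 0.12, limma adjusted p = 0.00275) was just short of the fold minimum, and it was called without Map3k3 array 2 at 0.70 or without uninduced array 3 at 0.68. Usp18 and the sensor Ifih1 did not pass the test and were near background.

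Of the transcription factors Irf5, which activates inflammatory genes downstream of Toll-like receptors, rose against both controls. Its log2 levels were -1.93, -2.10 and -2.05 in Map3k3 cells with Dox, -4.64, -4.10 and -3.97 without Dox and -4.95, -4.30 and -4.73 in EGFP cells. The induced arrays lay at least 4.63-fold above cells without Dox (limma adjusted p = 4.55e-06) and at least 4.99-fold above EGFP cells (limma adjusted p = 1.05e-06). Irf2, often an antagonist of Irf1, was called against cells without Dox (limma adjusted p = 0.000448) and not against EGFP cells. Its log2 levels were -3.63, -3.64 and -3.43 in Map3k3 cells with Dox, -6.52, -7.21 and -5.72 without Dox and -2.85, -3.84 and -5.04 in EGFP cells. The EGFP arrays spanned the induced level, and no fold is given because the induced arrays were not all well above background. Irf9 and Stat2 differed in the other direction by less than the fold minimum. Irf9 had log2 levels of 1.43, 1.41 and 1.40 in Map3k3 cells with Dox, 1.81, 1.99 and 1.94 without Dox and 1.97, 1.94 and 1.89 in EGFP cells (1.41-fold lower than without Dox, limma adjusted p = 2.51e-05). Irf1 had log2 levels of 3.23, 2.94 and 3.34 in Map3k3 cells with Dox and 4.04, 3.35 and 3.99 without Dox. Irf1 was lowest on array 2 in both groups. With replicate number as a block its log2 difference of -0.63 was called (limma adjusted p = 0.00586), as was that of -0.59 against EGFP cells (limma adjusted p = 0.00807). The same block added Ifit2 at 1.01 and Usp18 at 1.04 to the calls against cells without Dox, both near background. Some uncalled values also passed when 1 array was left out. Against cells without Dox these were Ifit2 without uninduced array 3 (1.63), Usp18 without Map3k3 array 3 (1.43), and Irf1 without uninduced array 2 (-0.85) or without null array 2 (-0.63). Against EGFP cells they were Irf1 without EGFP array 2 (-0.81) or null array 2 (-0.59), Tap1 without Map3k3 array 3 (0.64) or EGFP array 1 (0.63), and Ifih1 without EGFP array 3 (1.23), all log2 differences.

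**Figure D3:**
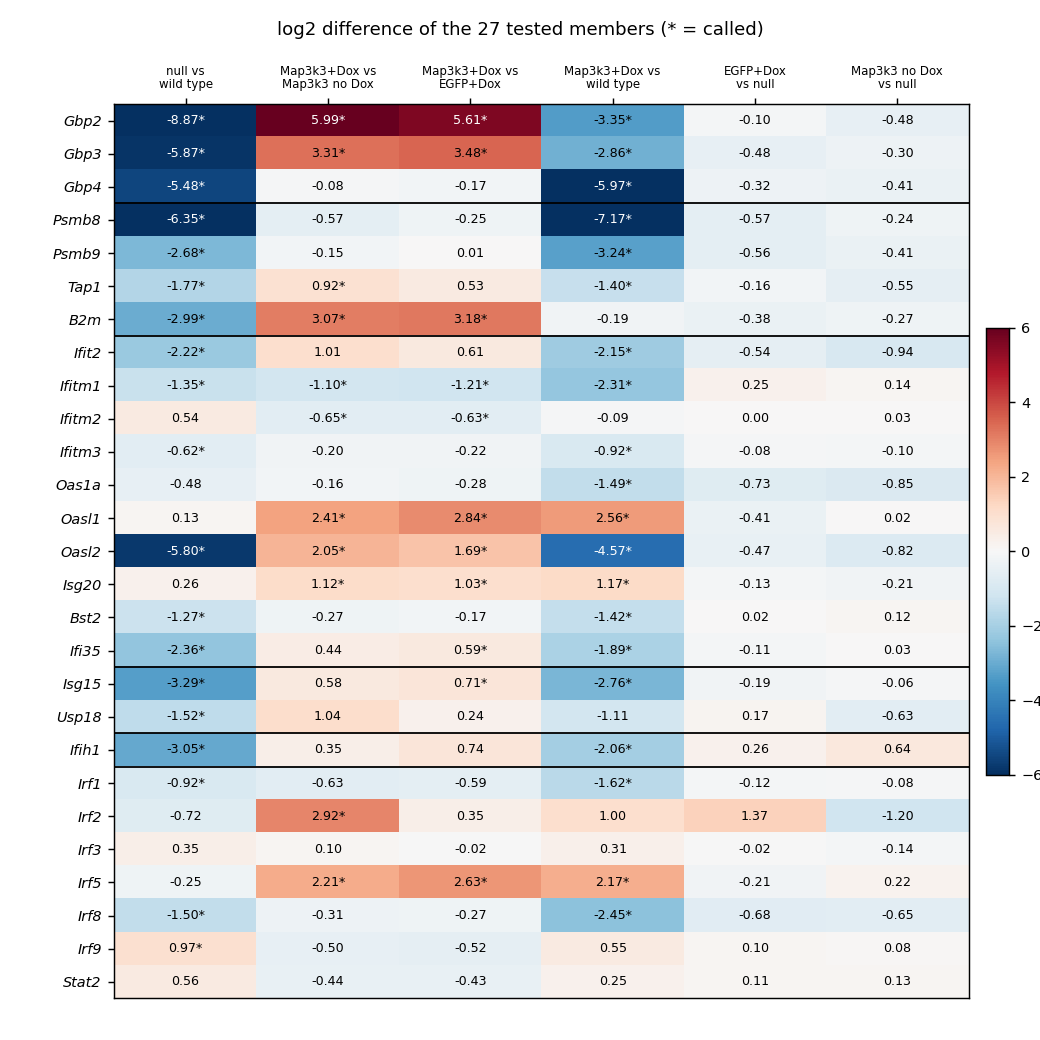
Log2 differences of the 27 tested members (rows, grouped by role) in the 6 comparisons (columns), with the group named first minus the other, red for higher and blue for lower, and an asterisk for called values. Gbp2, Gbp3 and B2m are blue in null against wild-type cells and red with Map3k3, and both right columns, of EGFP and of uninduced cells against null cells, hold no asterisk.

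Map3k3 cells with Dox were also set against wild-type cells, with which they share neither a slide nor the Nat1 gene. Of the 27 members 17 fell and 3 rose (38.3% of all genes called, 19.7% falling and 18.6% rising), with a median log2 difference of -1.49 over the members and -0.005 over all genes. The arrays did not overlap in 26 of the 27 members, which held for 70.9% of all genes. Here too the filter favoured falls of members that passed it through wild-type cells alone. Among the 15 members above background on all arrays 8 fell and 2 rose (34.1% of all genes called, 58.6% of those rising). Of the 18 members that fell in null cells 16 were called lower than wild type with Map3k3 as well, and Usp18 and B2m were not. Both comparisons use the same wild-type arrays, so this overlap is partly built in. The share over all genes was not counted. B2m had log2 levels of 2.60, 2.61 and 2.41 in Map3k3 cells with Dox and 2.74, 2.77 and 2.69 in wild-type cells, 1.14-fold lower (log2 difference -0.19, SE 0.15, limma adjusted p = 0.266). Gbp2 was 10.2-fold lower (limma adjusted p = 1.22e-09), Gbp3 7.27-fold lower (limma adjusted p = 3.35e-05) and Isg15 6.79-fold lower (limma adjusted p = 5.17e-09). Oasl1 rose 5.88-fold (limma adjusted p = 0.000805), Irf5 4.51-fold (limma adjusted p = 1.49e-06) and Isg20 2.25-fold (limma adjusted p = 0.00418) above wild type. In null against wild-type cells Oasl1, Irf5 and the brighter probe of Isg20 were not called, while the dimmer probe of Isg20 fell at least 5.48-fold (limma adjusted p = 5.94e-08). With slide as a block, estimated through the EGFP arrays, 16 members were called, and Ifih1 at -0.56, Ifit2 at -1.78, Irf8 at -1.45 and Oas1a at -1.06 were not. Usp18 was called at -1.59 without Map3k3 array 1, and at -1.11 without null array 1 or uninduced array 1, and Irf2 at 1.00 without EGFP array 1 or 3.

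The falls in null cells and the rises with Map3k3 against cells without Dox come from arrays that no comparison shares. Of the 18 members that fell in null cells 5 rose with Map3k3 (27.8%), while of the 2886 genes of the array that fell 1076 rose (37.3%). The 5 were Oasl2, Gbp2, Gbp3, Tap1 and B2m, and 12 of the 18 were not called with Map3k3 and 1, Ifitm1, fell again. Of the 5, Tap1 was not well above background on any array with or without Dox. Across the 27 members the log2 differences of these comparisons correlated at -0.491 (Pearson) and across all 14443 genes at -0.495, a description across genes, which are not independent. By these measures the members were close to the genes as a whole.

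**Figure D4:**
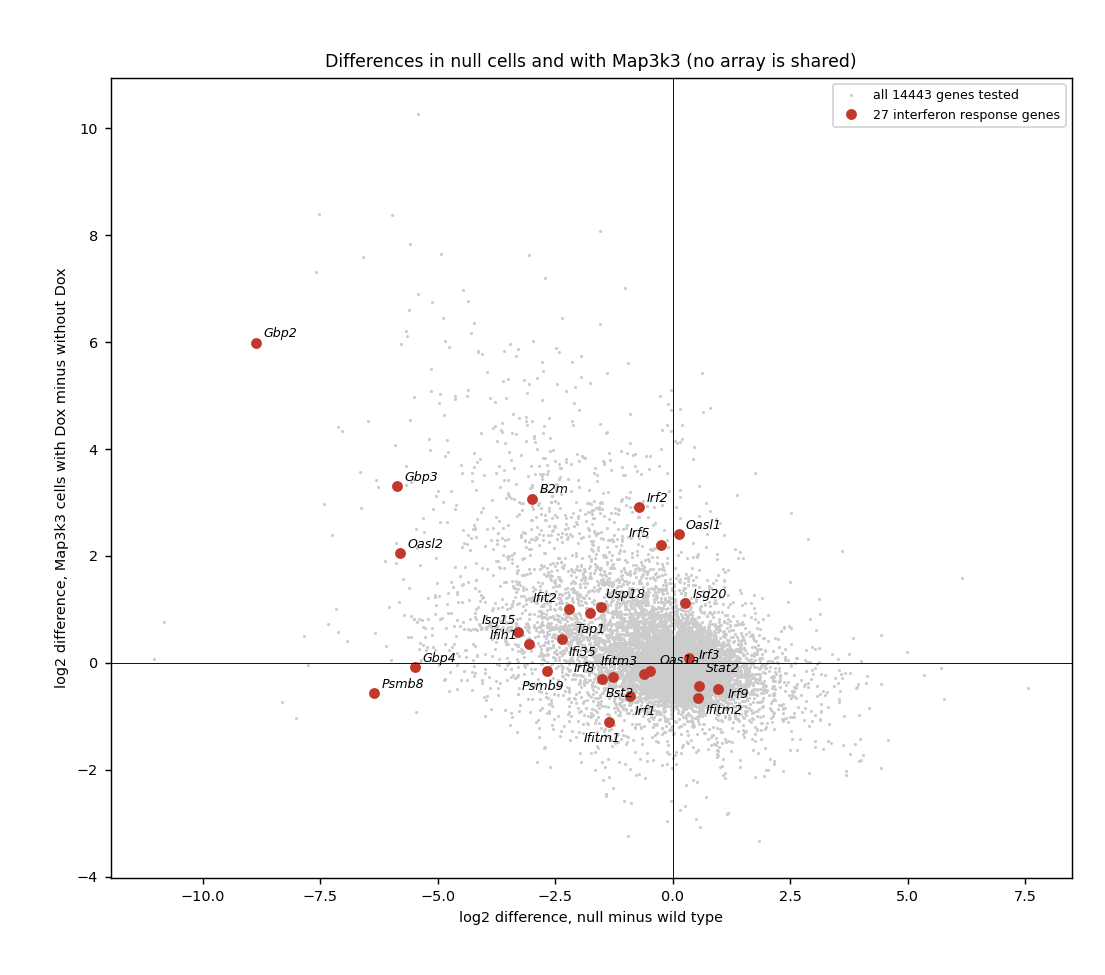
Log2 difference of null minus wild-type cells (horizontal axis) against that of Map3k3 cells with Dox minus without Dox (vertical axis), for the 14443 genes tested (grey) and the 27 members (red, named). Gbp2, Gbp3, B2m and Oasl2 lie at the upper left, Gbp4 and Psmb8 at the left near zero on the vertical axis, and Oasl1, Irf5 and Isg20 above zero near the middle.

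No member passed the test between the control groups on the null background. EGFP cells with Dox against null cells gave 0 called members of 27 in limma, with 3 at an unadjusted p under 0.05 (0.00692% of all genes called). Map3k3 cells without Dox against null cells also gave 0 of 27 in limma, with 4 at an unadjusted p under 0.05 (0% of all genes called). The arrays did not overlap in 2 members (12% of all genes) and in 4 members (21.8% of all genes). Median log2 differences over the members were -0.13 for EGFP cells and -0.21 for uninduced cells. Oas1a had log2 levels of 1.85, 1.18 and 1.92 in Map3k3 cells without Dox, 1.88, 1.37 and 2.05 in EGFP cells, 2.70, 2.05 and 2.75 in null cells and 2.87, 3.03 and 3.04 in wild-type cells. With replicate number as a block Oas1a was called as lower in Map3k3 cells without Dox than in null cells (log2 difference -0.85, limma adjusted p = 0.0392).

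Promoter letters were set beside the calls as a description. Of the 9 members that rose with Map3k3 against cells without Dox, all with a window, 5 held the NF-kB consensus (Oasl1, Isg20, Gbp2, Irf2 and B2m) and 4 the ISRE letters. Of the 14 with a window that were tested and not called, 4 held the NF-kB consensus and 6 the ISRE letters. The GAS letters were in 2 of these 9 and in 8 of these 14. The NF-kB match of Gbp2 lies at 8, after the start and outside the bases printed above. Among the 16 that fell in null cells and had a window, 7 held the ISRE letters, as did 4 of the 8 with a window that were tested and not called. Isg15, with 3 ISRE matches in the sequence printed above, and Gbp2, with 1, both fell in null cells. With Map3k3 against cells without Dox, Gbp2 rose at least 21-fold and the log2 difference of Isg15 was 0.58.

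A list of 70 other genes of interferon signalling and response was counted in the same fit, 58 of them tested. In null cells 13 of them rose and 25 fell (18.3% and 20% of all genes), with a median log2 difference of -0.43 over the list and 0.10 over all genes. Among those that fell were the chemokine Cxcl10, the peptide pump subunit Tap2, the MHC class I activator Nlrc5 and the GTPase Irgm1, at least 11.2-fold for Cxcl10 (limma adjusted p = 5.77e-09). Among those that rose were Xaf1, a pro-apoptotic interferon-induced gene, the kinase Ikbke and the DNA sensing pair Sting1 and Cgas. Sting1 had log2 levels of 1.39, 0.73 and 1.49 in null cells and -0.58, -0.64 and -0.51 in wild-type cells, with a log2 difference of 1.78 (limma adjusted p = 1.84e-05). By role, 4 of the 8 sensors and adaptors tested rose and 1 fell, while 7 of the 9 genes of the MHC class I pathway fell and none rose. Of the 4 kinases and signal transducers tested 3 rose and 1 fell. The kinases Tyk2 and Jak1 rose by 1.36 and 0.69 on the log2 scale, values noted after they were seen.

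With Map3k3, 12 of the 58 listed genes rose against cells without Dox and 6 fell (12% and 6% of all genes), and against EGFP cells 12 rose and 5 fell (12.1% and 6.04% of all genes). The median log2 difference over the list was -0.0008 against cells without Dox and 0.01 against EGFP cells, where all genes had -0.09 and -0.10. Cxcl10 had log2 levels of -1.68, -0.49 and -1.21 in Map3k3 cells with Dox, against -6.59, -6.80 and -6.50 without Dox and -5.91, -6.19 and -6.44 in EGFP cells, none of the controls well above background. It rose at least 16.1-fold against cells without Dox (limma adjusted p = 7.55e-09), to a level that did not pass the test against wild-type cells, which averaged a log2 level of -0.91 ± 0.08 (SD, n = 3). Ccl5, another chemokine, had log2 levels of -0.66, -0.34 and -0.57 in Map3k3 cells with Dox and -4.99, -4.98 and -4.70 without Dox, at least 19.4-fold (limma adjusted p = 2.65e-08). Ccl5 was not well above background in wild-type cells. Il10rb, a receptor chain of interferon lambda, and H2-D1, a class I MHC heavy chain, rose by 1.77 and 1.62 on the log2 scale. The class I genes H2-K1 and H2-T23, named after their values were seen, rose by 1.49 and 1.52 and did not pass the test against wild-type cells, like B2m, the chain that pairs with them. Of the 9 genes of the MHC class I pathway tested, 4 rose and none fell against cells without Dox. Against wild-type cells 4 of these 9 were still called lower and none higher (19.7% and 18.6% of all genes). Xaf1 fell by 1.62, Zbp1 by 1.48, Oas2 by 1.05 and Socs3 by 0.90 on the log2 scale against cells without Dox. The interferon gene Ifnb1 was not well above background on any array.

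The 5 members that were too dim had few arrays above background. Ifit1 was well above background on null array 3, at a log2 level of -2.75, and on wild-type array 1, at -4.66. Ifit3 was well above background on wild-type array 3 alone, at -3.42. Rsad2, Ifi44 and Irf7 were not well above background on any array.

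Marker genes of other cell types differed between the groups, and their part in the results above was not tested. All 7 embryonic stem cell markers were well above background in every group. Their summed linear signal, relative to the 75th percentile, ranged over arrays from 657 to 706 in Map3k3 cells with Dox, 819 to 869 without Dox, 829 to 858 in EGFP cells, 888 to 911 in null cells and 526 to 559 in wild-type cells. In null against wild-type cells 6 of these 7 rose (median log2 difference 0.71), and with Map3k3 2 of them fell against cells without Dox and 1 against EGFP cells. The sum of 12 fibroblast markers ranged from 11.7 to 15.9 in Map3k3 cells with Dox, 4.77 to 6.04 in those without Dox, 4.95 to 5.50 in EGFP cells, 5.83 to 6.05 in null cells and 83.8 to 88.8 in wild-type cells, so wild-type cells, which have the highest levels of most members, also have the highest fibroblast sum. On all 3 arrays, 5 of the 12 were well above background in each group on the null background and 9 in wild-type cells. Col6a3 and Lum were above background on no array, and Dcn in wild-type cells alone. The sum of 7 trophectoderm markers ranged from 288 to 342 in Map3k3 cells with Dox, 10.4 to 20.3 without Dox, 9.50 to 20.3 in EGFP cells, 10.5 to 23.9 in null cells and 162 to 168 in wild-type cells, high in the groups with the highest B2m. Of these 7, 6 were well above background on all arrays of Map3k3 cells with Dox and of wild-type cells, and 3 in each of the other groups. Of 9 leukocyte markers, Ptprc and Cd79a were above background on no array, and the sum lay between 12.1 and 13.1 in Map3k3 cells with Dox, 13.0 and 16.4 without Dox, 13.0 and 17.1 in EGFP cells, 14.9 and 17.96 in null cells, and 6.00 and 6.58 in wild-type cells. Of 4 endothelial markers 2 were well above background in every group, and Cdh5 on no array.

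In the 4 groups on the null background, arrays numbered 2 stood apart in several members. Of the 15 members well above background on all 15 arrays, 6 were lowest on array 2 in all 4 of these groups: Irf1, Irf3, Isg20, Oas1a, Oasl1 and Psmb9. Over 11860 genes the same held for 16.3%. Oasl1 on null array 2 had a log2 level of -1.90, against -0.42 and -0.14 on the other null arrays. Bst2 and Ifitm2 were highest on array 2 in all 4 groups (17.5% of all genes). Without these 4 arrays Oas1a was called as lower than in null cells both in EGFP cells (log2 difference -0.76, limma adjusted p = 0.0205) and in Map3k3 cells without Dox (log2 difference -0.84, limma adjusted p = 0.0214), and Oasl1 and Isg20 were called as higher in null than in wild-type cells, at 0.67 and 0.63. What the number 2 marks is not given in the labels.

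**Figure D5:**
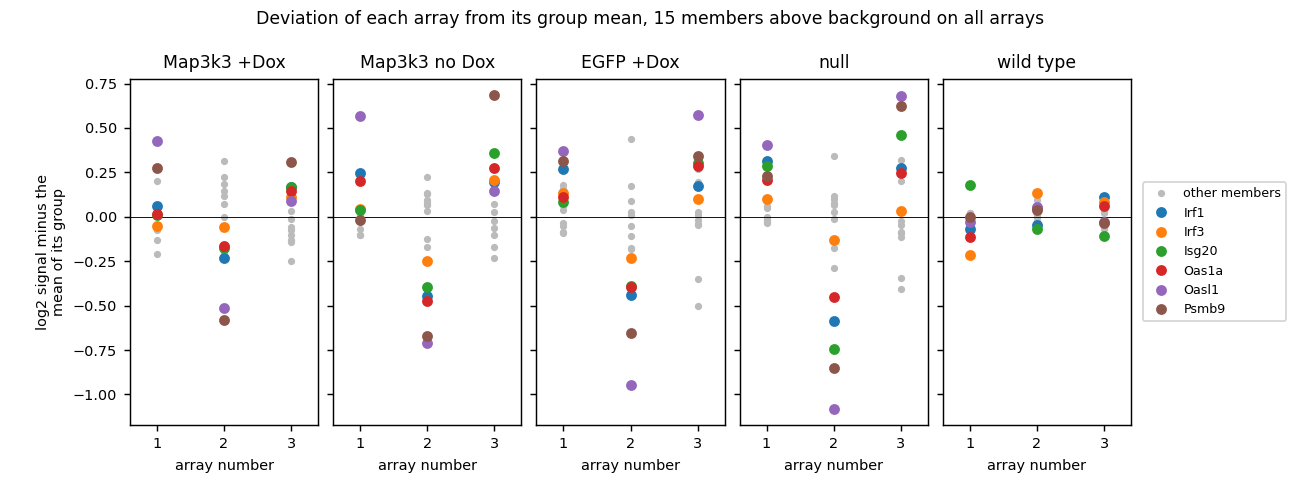
Log2 signal minus the mean of its group (vertical axis) for the 15 members above background on all arrays, by array number (horizontal axis), in the 5 groups. The 6 named members are lowest on array 2 in each of the 4 groups on the null background, down to about -1.08 for Oasl1 in null cells, and no such shift is visible in wild-type cells.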

How the data were processed

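The authors scanned each array and read it with Feature Extraction 11.5.1.1 (protocol GE1_1105_Oct12), per the file headers. The deposited tables hold a green intensity per spot that this software had processed and corrected for background, per the file headers. The authors' own deposited values are on a log2 scale and correlated at 1 with those used here on every array. Here the intensity was put on log2, unflagged spots of a probe were averaged, and the log2 of the array's 75th percentile over non-control spots was subtracted (R 4.3.3, Python 3.11.15). No spot was saturated. The arrays' number limits the precision.

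Symbols came from RefSeq accessions. Of 55681 probes 29782 passed the background filter, 18931 of them with a symbol, and the brightest passing probe stood for its gene. A limma 3.58.1 model with 5 group means and 10 residual degrees of freedom gave two-sided p-values, adjusted by Benjamini-Hochberg over 14443 genes for each of 6 comparisons. The fit was tested on simulated data. All members were named, and of the pathway list at most 4 called genes each way. Tyk2, Jak1, H2-K1 and H2-T23 were added to these after their values were seen. Members, lists, motifs and promoters shown were chosen with earlier results of these data known. Deviations from group means correlated between equal array numbers on the null background (0.154 to 0.318 for Map3k3 with against without Dox, 0.101 to 0.316 against EGFP cells). Between null and wild-type cells they did not (-0.03 to 0.01). Arrays 1 and 3 also correlated with each other, at 0.092 and 0.121 with against without Dox and 0.186 and 0.145 against EGFP cells. Array 2 paired with another number gave -0.287 to -0.184 and -0.255 to -0.164. These values set array 2 apart and do not establish a pairing by number. Alternatives were normalization, background correction, filters, probes, thresholds, blocks and left-out arrays.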

Additional observations from a re-analysis of the deposited data

How the results depend on the processing

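Over 34 alternative settings, 36 of the 61 called values of members kept their call under all, 25 lost it under at least 1, and none reversed. Of the 101 uncalled values 25 were called under at least 1. Isg20 in null against wild-type cells, not called and at 0.26, turned to a log2 difference of -1.39 (limma adjusted p = 3.07e-05) with the mean of its probes, since they disagree. Restricting the test to probes above background on all 15 arrays left 15 members, of which 9 were called in null against wild-type cells (8 falling, 33.2% of all genes called), 5 in Map3k3 cells with against without Dox (3 rising, 14.6%), 7 against EGFP cells (5 rising, 15%) and 10 against wild-type cells (8 falling, 34.1%). Of all genes called in null against wild-type cells under this filter 61.1% rose. With replicate number as a block the counts were 19, 14, 12 and 21, and 1 for Map3k3 cells without Dox against null cells. This block changed no other call than those of Ifit2, Irf1, Usp18 and Oas1a. Within slide row 1 the call count for Map3k3 with against without Dox was 5, with 1 induced array assumed to vary like the others, and within row 2 the count against EGFP cells was 4 (4.64% of all genes called), with 2 arrays a group. Without the 4 null-cell arrays numbered 2, the counts for EGFP cells and for Map3k3 cells without Dox against null cells were 1 and 1. Leaving out 1 array at a time gave 18 to 19 called members in null against wild-type cells, 11 to 13 in Map3k3 with against without Dox, 9 to 12 against EGFP cells and 20 to 21 against wild-type cells, and 0 to 0 for both control comparisons against null cells. Over all genes, no fold minimum gave 9251, 5959, 6217 and 8910 calls and a fold minimum of 2 gave 3293, 1509, 1477 and 3231, in place of 5526, 2606, 2625 and 5530. The filter on all 15 arrays gave 1736 in place of 2606, and the rows alone 1034 and 670. The count for EGFP cells against null cells was 21 with slide as a block and 67 without the arrays numbered 2, in place of 1, and that for Map3k3 cells without Dox was 42 with the replicate block and 112 without those arrays, in place of 0. With normexp correction Oasl2 lost its calls with Map3k3 against cells without Dox (0.40) and against EGFP cells (0.26) and kept those of null and of Map3k3 cells against wild-type cells. Tap1 lost its calls in null (-0.27) and Map3k3 cells (-0.32) against wild-type cells and with Map3k3 against cells without Dox (0.08), and Usp18 lost its call in null against wild-type cells (-0.25). Null and wild-type arrays fill different slide rows, which the row block separates only through the other groups.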
